A study of Mus musculus with 28 samples.

Results

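The 10 genes described here, Impact, Igf2, H19, Dlk1, Meg3, Peg3, Ndn, Snrpn, Cdkn1c and Plagl1, are imprinted genes of the mouse, taken by symbol from the 23038 genes in the deposited tables, and all 10 were found and passed the filter on low counts in every comparison. The 28 libraries of polyadenylated RNA came from mice on a BL6 background that were homozygous for a CRISPR knock-in giving NOVA1, a neuronal RNA-binding protein, its human-specific amino acid (Nova1 hu/hu), or from their wild-type littermates (Nova1 wt/wt). Embryonic midbrain (E18.5) gave 6 hu/hu and 6 wt/wt libraries, and midbrain and cortex at postnatal day 21 (P21) gave 4 of each genotype per region. A library held between 18550922 and 45134998 counts. Nova1 itself stood at a mean of 115.6 and 115.7 TPM (counts divided by exon length and scaled to the same total in every library) in hu/hu and wt/wt E18.5 midbrain, and a gene count cannot show the exchanged residue, so it checks no genotype label. Midbrain markers separated the region labels at P21: summed over En1, En2, Th and Gata3, they reached 106.6 to 127 TPM in midbrain at P21 and 10.2 to 20.2 in cortex.

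An imprinted gene is expressed mainly or wholly from the copy inherited from a given parent, and a nearby control region carries DNA methylation on the maternal or the paternal copy, depending on the cluster. Igf2, Dlk1, Peg3, Ndn, Snrpn, Plagl1 and Impact are best known as expressed from the paternal copy, and H19, Meg3 and Cdkn1c from the maternal copy. This need not hold in every tissue or cell type. Igf2 (a secreted growth factor), H19 (a non-coding RNA) and Cdkn1c (a cyclin-dependent kinase inhibitor) are best known for opposing roles in fetal growth, and Plagl1 is a zinc-finger transcription factor of the same field. Dlk1 (a transmembrane protein of the Notch ligand family) and Meg3 (a non-coding RNA) share another cluster. Peg3 is a zinc-finger protein, Ndn (necdin) a protein of postmitotic neurons, Snrpn the gene of SmN, a brain form of the splicing protein that Snrpb encodes, and Impact a brain-rich protein that restrains the amino acid sensor GCN2. The reads were not divided by parental copy, so every value below is the sum of both copies and says nothing about imprinting status.

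On the mouse genome build GRCm38 (mm10), with RefSeq positions, 6 of the 10 genes lie on chromosome 7. Igf2 (chr7:142650768-142666816) and H19 (chr7:142575530-142578146), both on the minus strand, are 72.6 kb apart, with Cdkn1c at chr7:143458339-143461059. The other 3 on that chromosome are Peg3 (chr7:6703892-6730462), Ndn (chr7:62348277-62349928) and Snrpn (chr7:59982495-60450177). Dlk1 (chr12:109452485-109463336) and Meg3 (chr12:109540996-109571729), both on the plus strand, are 77.7 kb apart. Plagl1 lies at chr10:13090832-13131694. Whether counting used the strand of the reads is not stated, and some exons are shared in the GENCODE vM21 annotation: Snrpn shares 216 exonic bases with Snurf on the same strand, Meg3 shares 1228 with the opposite-strand Gm26906, Cdkn1c shares a part of its exons with the opposite-strand Gm44732, and Igf2 shares 3596 with the same-strand Gm49394. Reads in those bases cannot be assigned with certainty.

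Sequences of H19, Dlk1 and Meg3 are shown because the age results below turn on these genes. The first set is the microRNA pair held within an exon of H19, the gene with the greatest fall in level, at chr7:142577112-142577133 and chr7:142577078-142577099 on the minus strand. They are given from RefSeq, 5′ to 3′, with the seed (bases 2 to 8) in capitals, and the libraries measured the H19 transcript, not these products.
mmu-miR-675-5p: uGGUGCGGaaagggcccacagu
mmu-miR-675-3p: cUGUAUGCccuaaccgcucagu
The seeds of the pair, GGUGCGG and UGUAUGC, differ.

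The second set is the promoter of each neighbour on chromosome 12, Dlk1 and Meg3, which moved in opposite directions with age. Each run spans 250 bases before to 50 after a start of the gene as listed in the RefSeq promoter table, which for Dlk1 lies downstream of the first base of the gene given above (GRCm38, plus strand, Dlk1 chr12:109452573-109452872 and the first start of Meg3 chr12:109540746-109541045), 5′ to 3′, with CpG dinucleotides, the sites of DNA methylation, in capitals.
Dlk1 promoter: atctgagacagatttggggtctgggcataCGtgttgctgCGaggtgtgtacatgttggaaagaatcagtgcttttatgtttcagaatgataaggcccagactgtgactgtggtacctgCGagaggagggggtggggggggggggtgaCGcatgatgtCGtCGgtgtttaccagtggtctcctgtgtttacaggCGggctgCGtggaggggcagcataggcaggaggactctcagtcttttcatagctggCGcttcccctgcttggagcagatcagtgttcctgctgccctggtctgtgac
Meg3 promoter: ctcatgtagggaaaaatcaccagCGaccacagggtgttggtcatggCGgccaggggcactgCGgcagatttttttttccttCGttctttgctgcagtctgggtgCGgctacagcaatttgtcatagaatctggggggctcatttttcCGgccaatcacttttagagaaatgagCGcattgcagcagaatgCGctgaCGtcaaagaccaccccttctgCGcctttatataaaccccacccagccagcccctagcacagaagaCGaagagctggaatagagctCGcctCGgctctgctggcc
The Dlk1 window held 9 CpG dinucleotides and the Meg3 window 13, against a median of 7 over 32851 promoter windows of the same length, and a median of 8 over the 14 windows available for 7 of the 10 genes. The letters TATAAA, read on both strands, occurred as 2 overlapping matches in the Meg3 window and not in the Dlk1 window; 13.6% of all windows held at least 1 match, as did 2 of the 14 windows of these genes. The letters CCATNTT and GGGGCGGGG, also read on both strands, each occurred in 1 of the 14 windows, against 16.1% and 11.4% of all windows. Methylation was not measured in these libraries.

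The 10 genes ranged from abundant to barely detected transcripts (the plot of TPM by library). TPM is scaled by exon length, so levels can be compared between genes. In E18.5 midbrain Snrpn was highest, at 1366 ± 55.9 TPM (SD, n = 12), followed by Meg3 at 1015 ± 164 and Ndn at 503 ± 26.3, and these 3 were ordered alike in all 12 libraries. Igf2 at 187 ± 19.9 TPM and H19 at 174.8 ± 23.3 TPM came next and overlapped, with Igf2 above H19 in 9 of 12 libraries. Peg3 followed at 136 ± 8.86 TPM, Cdkn1c at 107 ± 11.8, Impact at 92 ± 6.89, Plagl1 at 30.9 ± 1.99 and Dlk1 at 24.9 ± 2.39. Neighbours whose ranges also overlapped at this age were H19 with Peg3, Cdkn1c with Impact, and Plagl1 with Dlk1.

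At P21 the order had changed below the top pair. In P21 midbrain Snrpn stood at 2186 ± 44.2 TPM (SD, n = 8), Meg3 at 669 ± 39.7, Impact at 438 ± 7.36, Ndn at 280.0 ± 16.6, Peg3 at 202 ± 6.58, Igf2 at 73.6 ± 7.17, Dlk1 at 57.3 ± 2.18, Cdkn1c at 18.7 ± 2.61, Plagl1 at 9.50 ± 0.523 and H19 at 1.79 ± 0.557, and no neighbours in this order overlapped. In P21 cortex Snrpn stood at 2287 ± 40.2 TPM (SD, n = 8), Meg3 at 613 ± 55.7, Impact at 216 ± 13.2, Ndn at 139 ± 13.7, Igf2 at 68.0 ± 5.54, Peg3 at 60.5 ± 2.79, Plagl1 at 10.4 ± 0.467, Cdkn1c at 9.51 ± 0.944, Dlk1 at 7.62 ± 0.812 and H19 at 0.780 ± 0.919. There Igf2 overlapped with Peg3, Plagl1 with Cdkn1c, and Cdkn1c with Dlk1. Together the 10 genes made up 0.364% of all TPM in E18.5 midbrain and, at P21, 0.394% in midbrain and 0.341% in cortex.

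**Figure D1:**
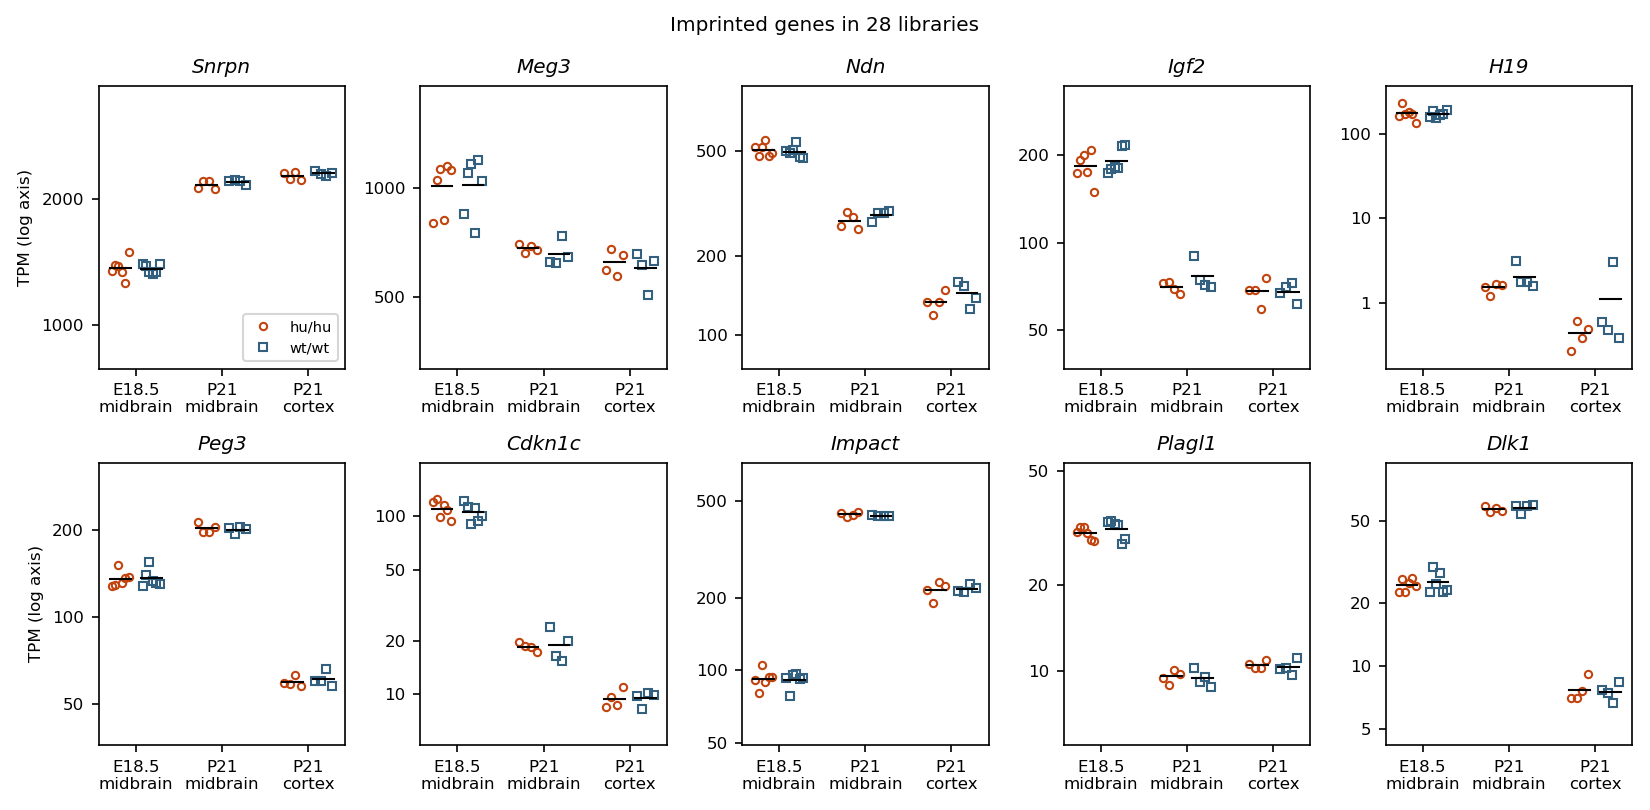
TPM (log axes) of each imprinted gene in every library, by age and region, with hu/hu libraries as circles, wt/wt libraries as squares and group means as bars. The genotypes overlap in each panel, H19 drops from a mean of 174.8 TPM at E18.5 to 1.79 in midbrain at P21, and Impact climbs from 92 to 438.

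To ask whether the human residue of NOVA1 altered these genes, hu/hu was compared with wt/wt within each age and region. None of the 10 genes passed the thresholds (p under 0.05 and adjusted p under 0.1, edgeR quasi-likelihood test) in any of the 3 sets, where 0% of all tested genes passed in each. At an unadjusted p under 0.05 (edgeR) there were 0 of the 10 genes in E18.5 midbrain, against 1.29% of all genes, 0 in P21 midbrain, against 2.67%, and 1 in P21 cortex, against 2.85%. With a block for the replicate number, which pairs the libraries, 813 of 15540, 735 of 15972 and 897 of 15767 genes fell under it in the same order of sets, with 0, 1 (Igf2, log2 fold change -0.11, SE 0.043, adjusted p = 0.999, edgeR) and 1 (H19) of the 10 among them, and none of the 10 passed the thresholds. DESeq2 also called 0 of the 10, and among all genes 1, in P21 midbrain. The TPM ranges of the genotypes overlapped for all 10 genes in every set, while 0.0515%, 1.92% and 2.02% of all genes had ranges that did not overlap in E18.5 midbrain, in midbrain at P21 and in cortex. In each set more genes fell under that unadjusted p with the block than without it. Genotype p-values and intervals from the fit without the block may therefore be too large and too wide. The intervals, from the fit without the block, bound what could have been missed. Leaving H19 aside, no 95% interval of a log2 fold change reached beyond -0.27 or 0.25. The widest was that of Cdkn1c in P21 midbrain, from -0.27 to 0.22. For Snrpn in P21 cortex the interval ran from -0.08 to 0.04, around a log2 fold change of -0.02 (SE 0.028).

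H19 in P21 cortex was the gene with an unadjusted p under 0.05. Its TPM was 0.267, 0.608, 0.387 and 0.496 in the 4 hu/hu libraries and 0.587, 0.477, 3.04 and 0.384 in the 4 wt/wt libraries, from 7 to 88 counts. All but wt/wt replicate 3 lay under 1 TPM, and the genotypes overlapped. The log2 fold change was -1.34 (SE 0.592, unadjusted p = 0.0383, adjusted p = 1, edgeR), the most negative of all genes tested in cortex, and without wt/wt replicate 3 it was -0.11. In P21 midbrain H19 had a log2 fold change of -0.41 (SE 0.231, unadjusted p = 0.099), with an interval from -0.90 to 0.09, which became -0.16 without wt/wt replicate 1, and in E18.5 midbrain, where counts ran from 2568 to 4014, 0.03 (SE 0.091). The genotype difference did not differ detectably between ages or between regions for any of the 10 genes, and 0% of all genes passed in both interaction tests (edgeR). At an unadjusted p under 0.05 there were 0 of the 10 in each, against 1.86% of all genes for the ages and 2.28% for the regions, and with DESeq2 H19 alone fell under it for the ages. For H19 the difference between regions had a log2 value of 0.94 (SE 0.668, unadjusted p = 0.173, edgeR). It changed sign to -0.30 without P21 cortex wt/wt replicate 3.

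**Figure D2:**
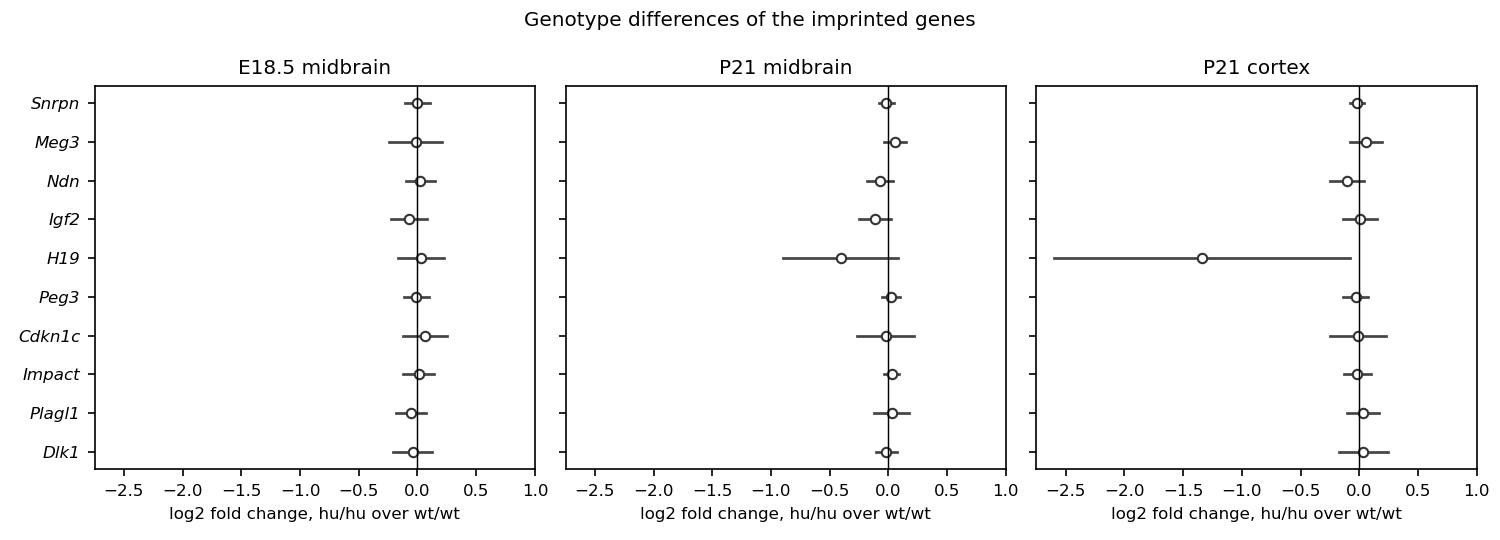
Log2 fold change of hu/hu over wt/wt (x axis) for each imprinted gene at E18.5 (6 and 6 libraries) and in both regions at P21 (4 and 4 each); points are estimates, lines 95% intervals, and open points did not pass the thresholds. All points are open, and H19 in P21 cortex, at -1.34, has the widest interval.

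Midbrain at P21 was compared with midbrain at E18.5, with genotype as a covariate. All 10 imprinted genes passed the thresholds, as did 85.6% of all tested genes, so the share itself is near the background; 4 were higher at P21 (42.4% of all genes were called higher) and 6 lower (43.3%). At 2-fold or more there were 6 (30.6% of all genes), 2 higher (15.9%) and 4 lower (14.6%). The TPM ranges of the ages did not overlap for any of the 10, as for 60.1% of all genes. Age cannot be told apart from the dissection and preparation of each age, and in bulk tissue fewer cells of a type and less RNA per cell cannot be told apart. Fold changes are on the TMM scale, on which the median of all genes was -0.016; on the TPM scale it was -0.22, and no direction of the 10 genes flipped.

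Impact (chr18:12954690-12992950) rose most. Its TPM ran from 78.8 to 105.3, with a median of 93.0, over the 12 E18.5 libraries. In P21 midbrain it was 448, 432, 436 and 451 in hu/hu and 437, 432, 432 and 434 in wt/wt. Each P21 library was far above the highest E18.5 library, and the P21 libraries lay close together. The log2 fold change was 2.45 (SE 0.042, adjusted p = 5.4e-26, edgeR), a 5.47-fold difference, and 596 of 16330 tested genes had a larger one. Of the 14 measured genes of the GCN2 pathway that Impact acts on, 10 were higher at P21, 3 lower and 1 did not pass. This share, 92.9%, is near the 85.6% of all genes that passed, and at 2-fold or more it was 14.3%, against 30.6%. The kinase GCN2 itself, Eif2ak4, had a log2 fold change of -0.12 (SE 0.061) and did not pass. Gcn1l1, whose product is bound by Impact in competition with GCN2, fell by 0.72, and the transcription factor Atf4 rose by 0.34 on the log2 scale.

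Dlk1 rose as well, from a range of 22.7 to 30.1 TPM (median 24.5) at E18.5. At P21 it was 59.0, 54.9, 57.5 and 55.9 TPM in hu/hu and 59.1, 53.7, 58.5 and 59.5 in wt/wt, well above every E18.5 library. The log2 fold change was 1.40 (SE 0.047, adjusted p = 8.1e-20, edgeR). Its neighbour Meg3 went the other way, with a log2 fold change of -0.40 (SE 0.073, adjusted p = 2.2e-05), the smallest of the 10. Meg3 ran from 749 to 1197 TPM with a median of 1078 at E18.5, and was 700.5, 659, 689.5 and 676 in hu/hu and 624, 619.8, 736 and 646 in wt/wt at P21. The lowest E18.5 library stood only just above the highest P21 library. The ratio of Meg3 to Dlk1 was 41.0 ± 7.67 at E18.5 (SD, n = 12) and 11.7 ± 0.673 at P21 (SD, n = 8), without overlap.

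Snrpn and Peg3 rose by less than 2-fold. Snrpn had a log2 fold change of 0.88 (SE 0.033, adjusted p = 6.1e-19, edgeR), from 1258 to 1492 TPM at E18.5 to 2120.1 to 2220.1 at P21. Snrpb, which encodes the Sm protein that Snrpn's product closely resembles, fell by 0.21 (SE 0.040) on the log2 scale. The ratio of Snrpn to Snrpb accordingly went from 5.69 ± 0.340 (SD, n = 12) to 12.2 ± 0.735 (SD, n = 8). Of the 9 genes in a list of Sm proteins and the related Snrpb2, Snrpn rose and the other 8 fell, by 0.21 to 1.53 on the log2 scale. Over all genes 85.6% passed and 43.3% were called lower. At 2-fold or more the share of the 9 was 22.2%, against 30.6% of all genes. Snurf, which shares its transcript with Snrpn, rose by 1.27. Peg3 ran from 128 to 155 TPM at E18.5 and from 193 to 214 at P21, a log2 fold change of 0.77 (SE 0.034, adjusted p = 2.5e-17).

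H19 fell furthest. Over the 12 E18.5 libraries it ran from 136 to 232 TPM, with a median of 172. At P21 it was 1.56, 1.22, 1.69 and 1.63 TPM in hu/hu and 3.10, 1.74, 1.76 and 1.6 in wt/wt, from 45 to 67 counts. No P21 library came within an order of magnitude of an E18.5 library. The log2 fold change was -6.45 (SE 0.116, adjusted p = 1.5e-25, edgeR), an 87.4-fold difference, and 5 of the 16330 tested genes had a more negative one. Igf2, its neighbour, fell much less, with a log2 fold change of -1.14 (SE 0.057, adjusted p = 4.5e-16). Its TPM ran from 149 to 216 with a median of 181 at E18.5, and was 72.9, 73.2, 69.1 and 66.7 in hu/hu and 90.3, 74.4, 71.8 and 70.5 in wt/wt at P21. The ratio of H19 to Igf2 was 0.938 ± 0.111 at E18.5 (SD, n = 12) and 0.0240 ± 0.00494 at P21 (SD, n = 8).

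Of 11 measured genes of the same growth factor axis, 8 were lower at P21, Igf2 itself among them, 2 higher and 1 did not pass. Over all genes 43.3% were called lower and 42.4% higher. The share of the 11 that passed, 90.9%, is near the 85.6% of all genes. The binding proteins Igfbp6 and Igfbp7 rose by 1.57 and 0.50 on the log2 scale. The ligand Igf1 fell by 0.89 on the log2 scale, the receptor Igf1r by 0.72, Igf2r, the receptor that clears Igf2, by 0.57, and the binding protein Igfbp2 by 0.96.

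The other 3 genes that fell were Cdkn1c, Plagl1 and Ndn. Cdkn1c ran from 89.9 to 124.6 TPM at E18.5 and from 15.5 to 23.9 at P21, a log2 fold change of -2.32 (SE 0.080, adjusted p = 1.3e-19, edgeR). Plagl1 ran from 27.8 to 33.5 TPM and from 8.81 to 10.2, a log2 fold change of -1.50 (SE 0.046, adjusted p = 1.2e-20). Ndn ran from 472 to 554 TPM and from 253 to 296, a log2 fold change of -0.64 (SE 0.044, adjusted p = 3.5e-13). Marker sums moved with the same comparison. Progenitor markers (5 genes) ran from 707 to 890.5 TPM at E18.5 and 103.7 to 132.6 in P21 midbrain, meningeal markers (11 genes) from 442 to 683 and 165 to 216, and oligodendrocyte markers (4 genes) from 58.2 to 81.1 and 18264 to 20583. All 5 progenitor and all 11 meningeal markers fell, and all 4 oligodendrocyte markers rose. All 4 microglia markers rose too. Choroid plexus markers (8 genes) were mixed, with 2 higher, 2 lower and 4 that did not pass. Neuron markers (4 genes) and astrocyte markers (4 genes) each gave 3 higher and 1 lower. Their part in the age differences was not tested.

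**Figure D3:**
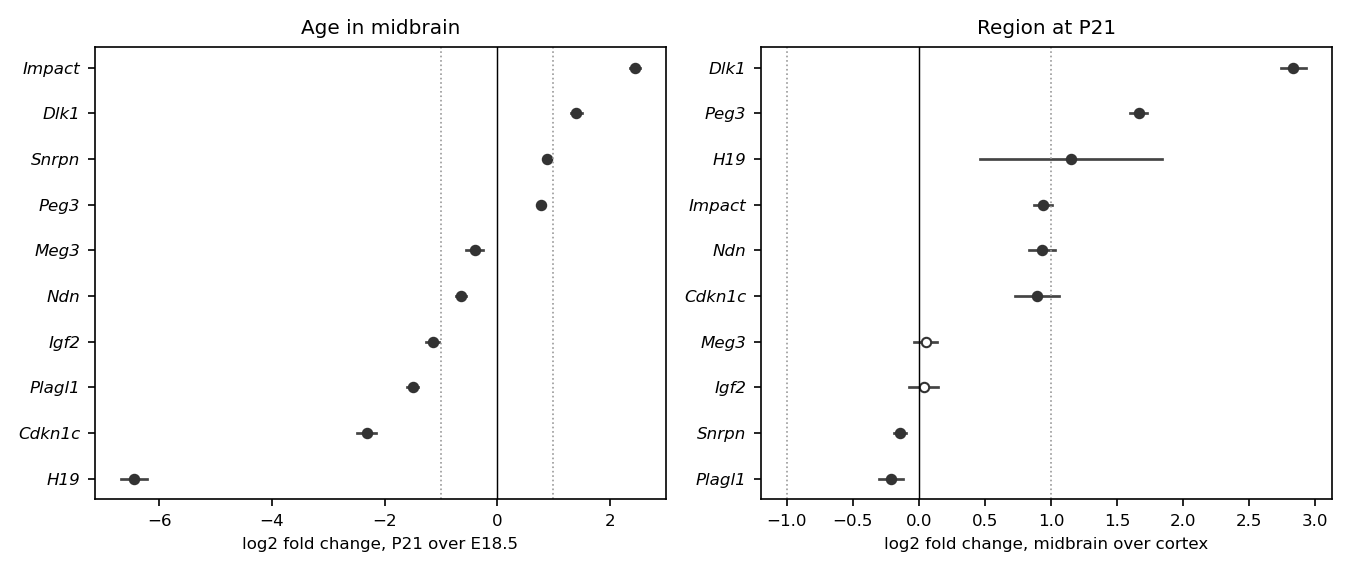
Log2 fold changes of the imprinted genes (points) with 95% intervals (lines) for P21 over E18.5 midbrain (left, 8 and 12 libraries) and for P21 midbrain over P21 cortex (right, 8 and 8 libraries); filled points passed the thresholds and dotted lines mark 2-fold. With age Impact (2.45) and H19 (-6.45) lie at the ends, and between regions Dlk1 (2.83) lies farthest from 0.

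Other imprinted genes, from a list of 42 of which 41 were in the tables and 38 were tested, are given for comparison. With age 12 were higher, 20 lower and 6 did not pass, with 5 and 10 at 2-fold or more, and their median log2 fold change was -0.21, against -0.015 for all genes. The share that passed, 84.2%, is near the 85.6% of all genes, of which 42.4% were called higher and 43.3% lower. At 2-fold or more it was 39.5%, against 30.6% of all genes. The genes listed as paternally expressed gave 6 higher and 12 lower of 20, and those listed as maternally expressed 6 and 8 of 18. Among the 10 largest changes, Rasgrf1, an activator of Ras, rose from 16.6 to 289 TPM (log2 fold change 4.32, SE 0.106), Nap1l5, a brain gene, from 229 to 733 TPM (1.88), and Atp10a, a phospholipid flippase, from 4.49 to 11.3 TPM (1.53). The remaining 7 fell: Nnat (neuronatin) from 2586 to 282 TPM (log2 fold change -2.995), Dio3, which inactivates thyroid hormone, from 2.03 to 0.249 TPM (-2.76), Mkrn3 (-2.17), Magel2 (-1.96), Zim1 (-1.75), Mest (-1.62) and Asb4 (-1.52). Magel2 and Mkrn3 belong to the region of Ndn and Snrpn, and Dio3 to that of Dlk1 and Meg3.

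Midbrain was compared with cortex at P21, again with genotype as a covariate. The labels do not say whether both regions came from the same mice. Of the 10 imprinted genes 8 passed the thresholds, against 75.6% of all genes tested: 6 were higher in midbrain (37.9% of all genes) and 2 lower (37.7%). At 2-fold or more there were 3 (15.4% of all genes), all higher (7.81%), and 0 lower (7.56%). The ranges of 6 genes did not overlap, as for 47.3% of all genes.

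Dlk1 differed most. Its TPM in cortex was 7.03, 6.99, 7.63 and 9.18 in hu/hu and 7.68, 7.44, 6.68 and 8.35 in wt/wt, against the P21 midbrain values above, all of at least 53.7. The log2 fold change was 2.83 (SE 0.047, adjusted p = 1.4e-24, edgeR), a 7.13-fold difference, and 167 of 16345 tested genes had a larger one. Meg3 did not pass, with a log2 fold change of 0.05 (SE 0.042, 95% interval -0.04 to 0.14): in cortex its TPM was 593, 679, 571 and 653 in hu/hu and 659, 611, 507 and 630.2 in wt/wt, within reach of the midbrain libraries. The ratio of Meg3 to Dlk1 was therefore 80.8 ± 8.31 in cortex (SD, n = 8), the highest of the 3 sets.

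Peg3 was next, at 57.9 to 66.1 TPM in cortex against 193 to 214 in midbrain, a log2 fold change of 1.67 (SE 0.031, adjusted p = 1.8e-23, edgeR). Impact was 215, 189, 232 and 223 TPM in hu/hu cortex and 213, 212, 228 and 218 in wt/wt cortex. Every P21 midbrain library had at least 432 TPM, and the log2 fold change was 0.94 (SE 0.033, adjusted p = 2.9e-18). Ndn ran from 119.7 to 159 TPM in cortex and was higher in midbrain by 0.93 (SE 0.047), and Cdkn1c, from 8.30 to 11.01 TPM in cortex, by 0.90 (SE 0.081), both on the log2 scale. Of the 14 GCN2 pathway genes 8 were higher in midbrain, 2 lower and 4 did not pass, so that 71.4% passed, against 75.6% of all genes. Eif2ak4 was higher by 0.39 and Gcn1l1 by 0.11, and Atf4, at -0.00, did not pass.

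H19 passed as higher in midbrain, with a log2 fold change of 1.15 (SE 0.332, adjusted p = 0.0033, edgeR), at the cortical values given above of 7 to 88 counts per library. The ranges overlapped through the same wt/wt cortex replicate 3. Without it the log2 fold change was 1.83. It did not pass within the wt/wt libraries alone (0.75, adjusted p = 0.199, edgeR), and DESeq2 gave it no adjusted p (1.23).

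The genes that were lower in midbrain differed little. Plagl1 ran from 8.81 to 10.2 TPM in midbrain and from 9.68 to 11.1 in cortex, which overlapped, with a log2 fold change of -0.21 (SE 0.044, adjusted p = 1.6e-04, edgeR). Snrpn, at 2120.1 to 2220.1 TPM in midbrain and 2220.9 to 2333 in cortex, had a log2 fold change of -0.14 (SE 0.021, adjusted p = 1.9e-06). On the TPM scale, on which the median of all genes was higher by 0.075, the values were -0.13 for Plagl1 and -0.065 for Snrpn, and no direction of the 10 genes flipped. All 9 genes of the Sm list were lower in midbrain, Snrpb by 0.32, and the ratio of Snrpn to Snrpb was 10.7 ± 0.560 in cortex (SD, n = 8). Over all genes 37.7% were called lower. At 2-fold or more there were 0 of the 9, against 15.4% of all genes. Igf2 did not pass, at 0.04 (SE 0.051, 95% interval -0.07 to 0.14): in cortex its TPM was 68.5, 68.8, 59.2 and 75.9 in hu/hu and 66.9, 70.6, 72.8 and 61.5 in wt/wt. Of the 11 measured genes of its axis 3 were higher in midbrain, 4 lower and 4 did not pass, so that 63.6% passed, against 75.6% of all genes. Igf2r was higher by 0.48 and Igf1 by 0.22, Igf1r was lower by 0.14, and Igfbp2, at -0.07, did not pass. Oligodendrocyte markers (4 genes) summed to 18264 to 20583 TPM in midbrain and 5235 to 5905 in cortex, with all 4 higher in midbrain. Meningeal markers (11 genes) summed to 165 to 216 TPM in midbrain and 115.5 to 161 in cortex, with 5 higher, 0 lower and 6 that did not pass. Choroid plexus markers (8 genes) gave 1 higher, 2 lower and 5 that did not pass. Neuron markers (4 genes) summed to 3373 to 3742 TPM in midbrain and 3932 to 4265 in cortex, with 3 lower and 1 higher, and microglia markers (4 genes) to 186 to 203 and 249 to 299, with all 4 lower. Their part in the region differences was not tested.

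Among the 38 other imprinted genes tested, 26 were higher in P21 midbrain, 7 lower and 5 did not pass, with 12 and 1 at 2-fold or more, and their median log2 fold change was 0.48, against 0.00063 for all genes. The share that passed was 86.8%, against 75.6% of all genes, of which 37.9% were called higher and 37.7% lower. At 2-fold or more 7.81% of all genes were higher and 7.56% lower. Those listed as paternally expressed gave 13 higher and 5 lower of 20, and those listed as maternally expressed 13 and 2 of 18. Of the 10 largest differences, Calcr, the calcitonin receptor, stood at 6.90 TPM in midbrain and 0.939 in cortex (log2 fold change 2.81, SE 0.114) and Asb4 at 5.47 and 0.852 TPM (2.60). Zim1, the neighbour of Peg3, followed (2.05), then Peg10 (1.68), Magel2 (1.67), Nap1l5 (1.499), the potassium channel gene Kcnk9 (1.49), the insulin receptor adaptor Grb10 (1.41) and the non-coding Airn (1.38). Dio3, which lies in the same cluster as Dlk1, was the exception, at 0.249 TPM in midbrain and 3.15 in cortex (-3.70, SE 0.240).

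**Figure D4:**
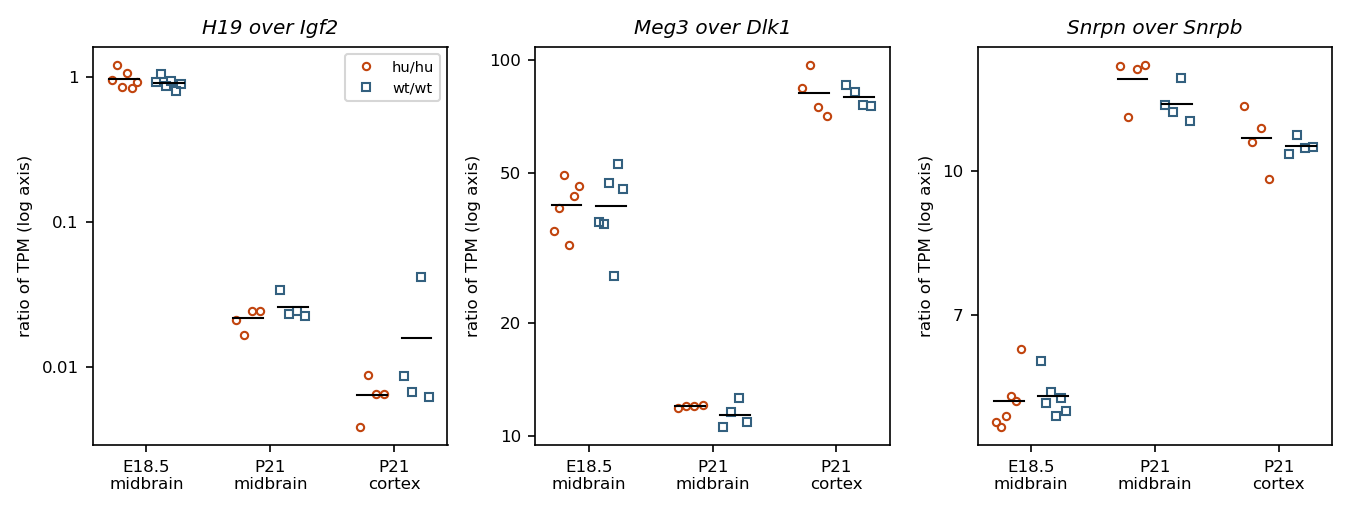
Ratios of TPM (log axes) within each library for H19 over Igf2, Meg3 over Dlk1 and Snrpn over Snrpb, with hu/hu libraries as circles, wt/wt libraries as squares and group means as bars. H19 over Igf2 goes from a mean of 0.938 at E18.5 to 0.0240 in midbrain at P21, Meg3 over Dlk1 is highest in P21 cortex (80.8) and lowest in P21 midbrain (11.7), and Snrpn over Snrpb is above 9 in every P21 library.

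Igf2 is known to be transcribed strongly in the meninges and choroid plexus of the brain, so it was related to the summed TPM of 11 meningeal markers (Col1a1, Col1a2, Col3a1, Dcn, Lum, Ogn, Slc6a13, Slc22a6, Foxc1, Aldh1a2 and Tbx18) across libraries of a set, on the log2 scale with genotype means removed. In E18.5 midbrain the libraries with more meningeal signal had more Igf2 (Pearson r = 0.845, exact permutation p = 0.000529, adjusted p = 0.00634 over 12 relations; Spearman rho = 0.768, exact permutation p = 0.00694, adjusted p = 0.0833; n = 12). Without the 2 libraries farthest from the median in Igf2, r was 0.770 (exact permutation p = 0.00208, n = 10). The lowest library in both, hu/hu replicate 6, had 149 TPM of Igf2 and 442 TPM of the markers. In P21 cortex r was 0.479 and rho 0.551 (exact permutation, adjusted p = 0.42 and 0.455, n = 8). In P21 midbrain r was 0.359 and rho 0.706 (exact permutation, adjusted p = 0.59 and 0.431, n = 8). H19 with the same markers, Igf2 with H19, and Dlk1 with Meg3 gave r from -0.177 to 0.725 in the 3 sets. By exact permutation their lowest adjusted p was 0.42 for r and 0.39 for rho. All these permutations treated the libraries of a genotype as independent. Same-numbered libraries of both genotypes deviated together over all genes (r from 0.256 to 0.499 at E18.5), so the p-values may be too small.

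**Figure D5:**
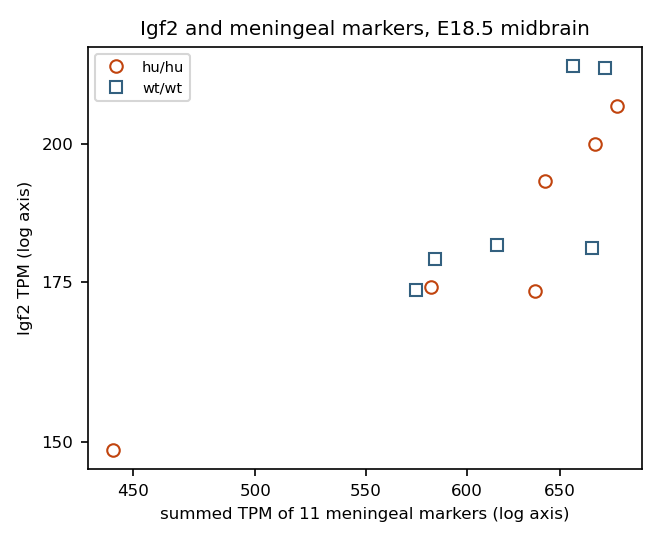
Igf2 TPM (y, log axis) against the summed TPM of 11 meningeal markers (x, log axis) in the 12 E18.5 midbrain libraries, with hu/hu as circles and wt/wt as squares. The lowest point has 149 TPM of Igf2 at a marker sum of 442, and at sums of over 650 Igf2 ran from 181 to 216 TPM.

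The genes most like 3 of the members in their variation between libraries were ranked over 14018 genes, by the mean over the 3 sets of Pearson's r of log2 CPM (counts scaled by library total) with genotype means removed. These are descriptions over 28 libraries that differ in depth. For Impact they were Lypd6b (mean r 0.832), Napb (0.824), Gtdc1 (0.801), Snx4 (0.784) and Serpinb6a (0.779). For Igf2 they were Sod3 (0.797), Tead2 (0.760), Bmp6 (0.760), Gorasp1 (0.754) and Lrp5 (0.727). For Dlk1 they were Srfbp1 (0.7002), Rpp25 (0.662), Mrps25 (0.650), Zfp74 (0.645) and Pcdhac1 (0.638), so that its best match was weaker than the fifth for either other gene.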

How the data were processed

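Polyadenylated RNA from mouse midbrain and cortex was sequenced in paired-end reads, aligned by the authors to mm10 with OLego and counted per gene with Quantas; the annotation version and the use of strand are not given in the sources used here. For each library the authors deposited an expected count, an exon length and the RPKM of every gene. These deposited RPKM values followed from the counts, lengths and totals and were not used further. The deposited expected counts, not whole for 751 to 2715 genes per library, were rounded for tests; TPM was computed from unrounded counts. Rn45s, a ribosomal RNA precursor, held the most counts in each library (2.54% to 11.9%).

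All tests were fitted over all genes with edgeR 4.0.16 (R 4.3.3; quasi-likelihood, TMM factors, filterByExpr), two-sided, with Benjamini-Hochberg adjustment; called genes had p under 0.05 and adjusted p under 0.1, the study's thresholds. Genotype was tested within each age and region, age and region with genotype as covariate, and 2 interactions. Alternatives were DESeq2 1.42.0, its size factors within edgeR, other count filters, edgeR's exact test, each genotype alone, a replicate block, leaving out each library and, added after the data were seen, leaving out Rn45s and the TPM scale. Relations were tested by exact permutation within genotype on log2(TPM + 0.1). The scripts were tested on simulated data. Intervals are 95%. P-values measure the spread between libraries, since the labels do not say how replicates were obtained. The study reports equal numbers of male-female pairs for its RNA sequencing. Sex was not a term in any fit.

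The labels number replicates alike in both genotypes. Same-numbered libraries deviated together over all genes, with r from 0.256 to 0.499 at E18.5. At P21 it ran from 0.266 to 0.300 in midbrain and from 0.252 to 0.310 in cortex. The numbers were taken as pairs on the evidence of the data alone, and only in the alternative with a replicate block. The main fits left this pairing out, so their genotype p-values and intervals may be too large and too wide.

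The members and lists were chosen with earlier results of these data known. All 10 members were named in every comparison, with the 10 largest non-overlapping differences among other imprinted genes, fixed partners, and the 5 most alike genes for Impact, Igf2 and Dlk1. Positions, promoters and microRNAs came from RefSeq (GRCm38.p6); 22959 of 23038 gene IDs matched. Rtl1 was not used here. A check of the region labels by cortical markers is not reported here.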

Additional observations from a re-analysis of the deposited data

Results flagged for a closer look

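Among the groups of libraries, 5 held a value whose gap to the nearest other value was large against the range of its group (Dixon's 95% limit), out of 60 groups examined (10 genes in 6 groups). Chance gives about 1 in 20. All 5 were in wt/wt groups. H19 in P21 cortex wt/wt replicate 3 stood at 3.04 TPM (88 counts), against 0.384 to 0.587 in the other 3 libraries. H19 in P21 midbrain wt/wt replicate 1 stood at 3.10 TPM (67 counts), against 1.6 to 1.76. Impact in E18.5 midbrain wt/wt replicate 2 was low, at 78.8 TPM against 92.4 to 96.5 in the other 5. Dlk1 in P21 midbrain wt/wt replicate 2 was low, at 53.7 TPM against 58.5 to 59.5. Snrpn in P21 midbrain wt/wt replicate 4 was low, at 2162 TPM against 2215 to 2220.1.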

How the results depend on the processing

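Members called between genotypes and in both interactions (0) and with age (10) were the same number under every alternative run. Between regions 8 were called, or 7 in the wt/wt libraries alone, where H19 did not pass (0.75), with DESeq2, which gave H19 no adjusted p (1.23), and with at least 10 counts in every library, which left H19 out; at 2-fold or more there were 3, or 2 in those settings. With the replicate block, which pairs same-numbered libraries, 0 of the 10 members were called between genotypes in each set, and 4 of all genes in P21 midbrain and 0 in the other sets, against 0 in each without it; DESeq2 and edgeR's exact test each called 1 gene in P21 midbrain. The block changed no call of a member. In the age, region and interaction fits it also joined same-numbered libraries of different ages or regions. Pairing was examined only between genotypes within a set, so there the block is no check of it.

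The rest are changes of sign in values that passed no test. Snrpn between genotypes at E18.5 was 0.0021 without a filter, 9.5e-05 with at least 10 counts in every library, 2.2e-05 by the exact test and 0.0018 without Rn45s; its genotype by region value was -0.0011 without Rn45s. Igf2 between regions was -0.029 in the hu/hu libraries alone. Without the 2 libraries farthest from the median, r of Dlk1 with Meg3 became 0.301 (E18.5 midbrain), -0.367 (P21 cortex) and -0.0414 (P21 midbrain), that of H19 with the meningeal markers -0.0305 (P21 cortex) and 0.1005 (P21 midbrain), and that of Igf2 with H19 -0.391 (P21 midbrain). The cause was not tested.

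Leaving out each library in turn gave these ranges of log2 fold change where the sign changed. Between genotypes at E18.5, Impact ranged from -0.035 to 0.049, H19 from -0.056 to 0.091, Dlk1 from -0.074 to 0.0078, Meg3 from -0.082 to 0.040, Peg3 from -0.032 to 0.019, Ndn from -0.012 to 0.060 and Snrpn from -0.031 to 0.028. In P21 midbrain, Cdkn1c ranged from -0.10 to 0.098 and Plagl1 from -0.0086 to 0.063. In P21 cortex, Impact ranged from -0.059 to 0.039, Igf2 from -0.044 to 0.066, Dlk1 from -0.050 to 0.083, Meg3 from -0.011 to 0.11, Peg3 from -0.062 to 0.016 and Cdkn1c from -0.085 to 0.030. Between regions, Igf2 ranged from -0.0054 to 0.062. For genotype by age, Impact ranged from -0.015 to 0.070, Igf2 from -0.091 to 0.038, Dlk1 from -0.021 to 0.058, Snrpn from -0.042 to 0.017 and Cdkn1c from -0.16 to 0.037. For genotype by region, Impact ranged from -0.0064 to 0.095, H19 from -0.30 to 1.23, Dlk1 from -0.097 to 0.033, Meg3 from -0.042 to 0.071, Ndn from -0.011 to 0.092, Snrpn from -0.017 to 0.016, Cdkn1c from -0.093 to 0.12 and Plagl1 from -0.039 to 0.033. H19 at P21, with 7 to 88 counts per library, was the member most limited by depth.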

Other observations

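Libraries of a set differed widely in choroid plexus markers. The summed TPM of 8 of them (Ttr, Folr1, Kcnj13, Clic6, Cldn2, Kl, Sostdc1 and Prlr) ran from 54.8 to 3686 in E18.5 midbrain, from 20.4 to 3062 in P21 midbrain and from 1170.4 to 2223 in P21 cortex. In P21 midbrain the library highest in them, wt/wt replicate 1, had 90.3 TPM of Igf2 and 23.9 of Cdkn1c, each the highest of its set, and 3.10 of H19. A hu/hu library of that set reached a marker sum of 2875 TPM. Yet no hu/hu library there exceeded 73.2 TPM of Igf2, 19.7 of Cdkn1c or 1.69 of H19. The library lowest in the markers, hu/hu replicate 3, had 69.1 TPM of Igf2 and 18.3 of Cdkn1c. In E18.5 midbrain the highest library, hu/hu replicate 3, had 199.9 TPM of Igf2 and 98.1 of Cdkn1c, and the lowest, hu/hu replicate 4, had 174 and 114, so that Cdkn1c was the lower in the library with more choroid signal. In P21 cortex the highest library, hu/hu replicate 2, had 68.8 TPM of Igf2 and 9.65 of Cdkn1c, and the lowest, wt/wt replicate 1, had 66.9 and 9.83. None of the 8 markers passed the thresholds between genotypes in any set. The part of these markers in the values of Igf2 was not tested.

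Meg3 in E18.5 midbrain varied by replicate number in both genotypes. It was 800.4 and 814 TPM in hu/hu replicates 1 and 4 and 846 and 749 TPM in wt/wt replicates 1 and 4, whereas the other 8 libraries ran from 1048 to 1197 TPM. The labels give no batch or litter for these numbers.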
